A study of Mus musculus with 23 samples.

Results

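The Upf1 gene and 4 genes whose transcripts are textbook targets of nonsense-mediated decay, Gas5, Atf4, Srsf2 and Srsf3, were examined in Upf1 crosslinking and immunoprecipitation libraries (CLIP-seq) from mouse embryonic stem cells. The genes were selected by name from what is known of the pathway, at a time when earlier results of these data were known. Each was represented by 1 strand-specific window on mouse build mm9. The windows together held 504 of the 366484 distinct alignments of the 10 CLIP libraries, or 0.138%. Of these, 145 fell in the Gas5 window, 180 in Atf4, 77 in Srsf2, 43 in Srsf3 and 59 in Upf1. A distinct alignment is a chromosome, start, end and strand, counted once in each library however many lines of the file it filled.

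Nonsense-mediated decay degrades transcripts on which translation ends in a context read as premature, typically upstream of a splice junction that still carries an exon junction complex. Upf1 is the RNA helicase at its centre: it binds RNA, meets the terminating ribosome, and is phosphorylated before the decay enzymes are recruited. Because the pathway needs translation, inhibitors of translation such as cycloheximide stabilise its targets and are a common way to reveal them. Upf1 transcripts are themselves described as subject to feedback by the pathway.

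All CLIP libraries came from v6.5 cells, an embryonic stem cell line, cultured on feeder fibroblasts, separated from these by pre-plating, and irradiated with ultraviolet light at 254 nm and 400 mJ/cm2. A rabbit antibody against Upf1 was used for 3 libraries from untreated cells, named A1, A2 and I, and for 2 from cells given cycloheximide at 100 µg/ml for 2 hours, named A1 and A2. Rabbit IgG, the background control, was used for the same numbers of libraries under the same names. Nothing in the labels tells if the libraries within a group are separate cultures, so the p-values measure the spread between these libraries, which may be technical. Markers of embryonic stem cells or feeder fibroblasts were not checked, since no annotation of mm9 was at hand. Another 10 samples, of mRNA-seq, and 3 of ribosome footprints were not analysed here.

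The libraries differed in depth and had molecules in common, and both facts touch every value given for the 5 genes. Distinct alignments numbered from 7215 in IgG cycloheximide A1 to 97651 in Upf1 untreated A1. The longest unspliced alignments were 34 nt in untreated libraries A1 and I of the Upf1 antibody and in untreated library I of IgG, and 38 nt elsewhere, so all cycloheximide libraries had the longer reads. A molecule, meaning an alignment with its 2 random adapter letters, could be present in several libraries. How many matches would arise by coincidence with only 2 letters was not estimated. Of all molecules in IgG untreated A2 and the IgG pair with cycloheximide, between 81.6% and 85.4% were also in another library. Inside the windows 20 of the 39 molecules of IgG cycloheximide A2 were also present in Upf1 cycloheximide A2. With such libraries, material found with IgG cannot be taken as independent of material found with the Upf1 antibody.

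Gas5 is a multi-exon host gene of small nucleolar RNAs, which lie in its introns, and its spliced transcript has a short open reading frame and is degraded when it is translated. The window covered chr1:162964000-162969000 on the plus strand. With the Upf1 antibody it held 42, 5 and 37 distinct alignments in untreated A1, A2 and I, and 10 and 11 in cycloheximide A1 and A2. With IgG it held 1, 6 and 16 in untreated A1, A2 and I, and 5 and 12 in cycloheximide A1 and A2. Every library had at least 1 alignment, and the 2 deepest libraries had the highest numbers.

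Scaled to 100000 distinct alignments of the library, Gas5 stood at 43.0, 24.5 and 41.5 in Upf1 untreated A1, A2 and I and at 31.5 and 32.1 in Upf1 cycloheximide A1 and A2. The corresponding IgG rates were 9.71, 72.5 and 33.6 untreated and 69.3 and 60.9 with cycloheximide. The mean was 36.3 ± 10.3 (SD, n = 3) in Upf1 untreated, 31.8 ± 0.488 (SD, n = 2) in Upf1 cycloheximide, 38.6 ± 31.7 (SD, n = 3) in IgG untreated and 65.1 ± 5.95 (SD, n = 2) in IgG cycloheximide. Untreated and cycloheximide libraries overlapped with either antibody. The antibodies overlapped in untreated cells, and with cycloheximide both IgG libraries were above both Upf1-antibody libraries. Averaged over the treatments Gas5 was 14.7 per 100000 higher with IgG (exact two-sided permutation test, p = 0.3; adjusted p = 0.778 over 20 tests of rates).

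Atf4 encodes a transcription factor of the integrated stress response, and its messenger RNA carries upstream open reading frames, whose stop codons make it a target of the pathway. The window covered chr15:80085000-80088500 on the plus strand. Its distinct alignments numbered 55, 8 and 32 in Upf1 untreated A1, A2 and I, 11 and 17 in Upf1 cycloheximide A1 and A2, 1, 3 and 26 in IgG untreated A1, A2 and I, and 13 and 14 in the IgG pair with cycloheximide. Only this window and that of Gas5 held alignments in all 10 libraries.

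The rate of Atf4 per 100000 was 56.3, 39.1 and 35.9 in Upf1 untreated A1, A2 and I, and 34.6 and 49.7 in Upf1 cycloheximide A1 and A2. These groups overlapped, with means of 43.8 ± 11 (SD, n = 3) and 42.1 ± 10.7 (SD, n = 2). In IgG untreated A1, A2 and I the rate was 9.71, 36.3 and 54.5, and with cycloheximide it was 180 in A1 and 71.0 in A2. The IgG groups did not overlap, and cycloheximide was higher by 92.1 per 100000 (exact two-sided permutation test, p = 0.1, the smallest that 2 against 3 libraries allow; Benjamini-Hochberg adjusted p = 0.778 over the 20 permutation tests of rates). In IgG cycloheximide 26 of the 32 Atf4 molecules, 81.3%, were also present in another library, and without shared molecules the fitted log2 difference went from 1.94 to 0.35. The median over all windows and genome tiles tested went from 0.32 to -0.18 in the same step. The Atf4 value then rests on few IgG cycloheximide molecules.

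Srsf2 encodes an SR protein, a splicing regulator that limits its own level by producing spliced isoforms that the pathway degrades. The window covered chr11:116710000-116715500 on the minus strand, and the neighbouring gene there in RefSeq is Mettl23. It held 19, 1 and 31 alignments in Upf1 untreated A1, A2 and I, 1 and 2 in Upf1 cycloheximide A1 and A2, 0, 1 and 18 in IgG untreated A1, A2 and I, and 1 and 3 in the IgG pair with cycloheximide. The libraries with 34-nt reads were the highest with either antibody, and they held 68 of the 77 alignments. They were also the deepest libraries, with 234527 of the 366484 distinct alignments over the whole genome, so read length and depth coincide.

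The Srsf2 rates per 100000 showed the same order, with 19.5, 4.89 and 34.8 in Upf1 untreated A1, A2 and I and 3.15 and 5.85 in Upf1 cycloheximide A1 and A2. In IgG they were 0, 12.1 and 37.8 untreated and 13.9 and 15.2 with cycloheximide. Cycloheximide and untreated libraries overlapped with both antibodies. The 0 in IgG untreated A1 allows a rate of up to 29.1 per 100000, which is 3 alignments of that library, and covers counting error only. All 7 Srsf2 molecules of the cycloheximide libraries were also present in another library.

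Srsf3 encodes another SR protein of the same kind, which regulates its own splicing through an exon with a premature stop codon. The window covered chr17:29169000-29181000 on the plus strand. It held 10, 0 and 18 alignments in Upf1 untreated A1, A2 and I, none in Upf1 cycloheximide A1 and A2, 0, 0 and 15 in IgG untreated A1, A2 and I, and none in IgG cycloheximide A1 and A2. All 43 alignments therefore came from the 3 libraries with 34-nt reads, where the rates were 10.2 and 20.2 per 100000 in untreated A1 and I of the Upf1 antibody and 31.5 in untreated I of IgG.

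Pooled over the group, Srsf3 was at 13.5 per 100000 in Upf1 untreated and at 0 of 66012 alignments in Upf1 cycloheximide. This is 2.97-fold lower when the 0 is set at 3 alignments over the group. With IgG it was at 22.6 per 100000 untreated and 2.03-fold lower with cycloheximide. The 7 libraries with 38-nt reads, of which 3 were untreated, held 0 of 131957 alignments against 43 of 234527 in the 3 with 34-nt reads, 8.06-fold lower. These ratios leave out the counting error of the higher group and the spread between libraries. The treatment groups overlapped, as Upf1 untreated A2 and IgG untreated A1 and A2 were also at 0. Cycloheximide differed by -10.1 per 100000 with the Upf1 antibody (exact two-sided permutation test, p = 0.4). Over both antibodies the difference was -10.3 (exact two-sided permutation test, p = 0.34, adjusted p = 0.778 over 20 tests of rates). Read length, depth and treatment cannot be told apart in the libraries that hold Srsf3.

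Upf1, the gene of the immunoprecipitated helicase, was covered by the window chr8:72855000-72878000 on the minus strand, next to Cers1 and Gdf1 in RefSeq. It held 25, 5 and 7 alignments in Upf1 untreated A1, A2 and I, 3 and 2 in Upf1 cycloheximide A1 and A2, 0, 3 and 10 in IgG untreated A1, A2 and I, and 1 and 3 in the IgG pair with cycloheximide. The rates were 25.6, 24.5 and 7.85 per 100000 in Upf1 untreated and 9.44 and 5.85 in Upf1 cycloheximide, and the groups overlapped. With IgG they were 0, 36.3 and 21.0 untreated and 13.9 and 15.2 with cycloheximide. These alignments are RNA of the Upf1 locus recovered with the antibody, and they do not measure the Upf1 protein.

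**Figure D1:**
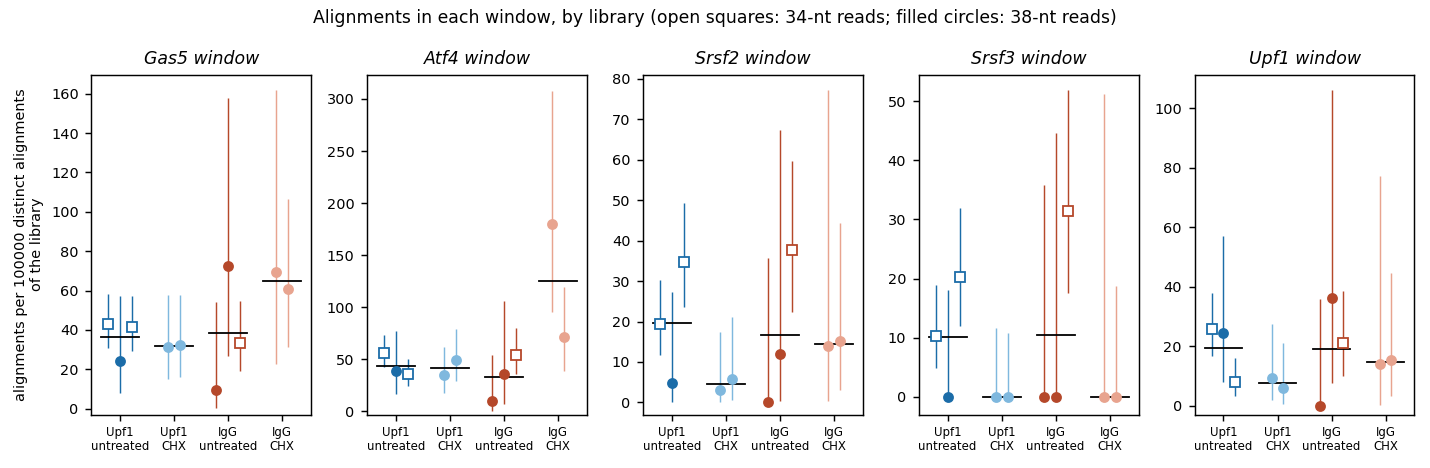
Alignments in each window per 100000 distinct alignments of the library (y axis, linear, own scale for each gene), for the 10 CLIP libraries in 4 groups (CHX, cycloheximide). Points are libraries with exact 95% Poisson intervals, which cover counting error only; black bars are group means; open squares are libraries with 34-nt reads and filled circles those with 38-nt reads. Srsf3 is at 0 in all libraries with 38-nt reads, and Atf4 reaches 180 in IgG cycloheximide A1.

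Per kilobase of window, the windows ranked Atf4, Gas5, Srsf2, Upf1 and Srsf3. The mean rate per 100000 alignments and kilobase over all 10 libraries was 16.2 ± 13.2 (SD, n = 10) for Atf4 and 8.37 ± 4.04 (SD, n = 10) for Gas5. Atf4 was above Gas5 in 9 of 10 libraries, although the 2 means differed by less than the SD of Atf4. Srsf2 stood at 2.67 ± 2.34 (SD, n = 10), below Gas5 in 9 of 10 libraries. Upf1, at 0.694 ± 0.475 (SD, n = 10), and Srsf3, at 0.516 ± 0.929 (SD, n = 10), differed by less than their spread. A window includes introns and flanks, so this order is not an order of transcript levels.

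The first comparison asked whether the antibody against Upf1 enriched the 5 windows over IgG. In limma-voom, which was fitted on a table of 7344 features (the 5 windows and strand-specific tiles of 10000 nt over the rest of the genome), the log2 ratio of Upf1 antibody to IgG was 0.31 ± 0.92 (SE) for Atf4, 0.20 ± 0.90 (SE) for Gas5, 0.15 ± 0.81 (SE) for Upf1, -0.13 ± 0.80 (SE) for Srsf2 and -0.32 ± 0.71 (SE) for Srsf3. None of the 5 passed an adjusted p of 0.05, and 0 of the 7344 features did (0%). At an unadjusted p under 0.05 the whole table had 19 features higher and 87 lower with the Upf1 antibody, and none of the 5 windows was among them. The median of all features was -0.14, so the windows lay between 0.18 below and 0.45 above it on the log2 scale. With standard errors this large, the data neither show an enrichment of these genes nor limit it to a small size. Scaled to library totals, Atf4, Gas5 and Upf1 took the opposite sign, and the median of all features then moved to -0.75. Without IgG untreated A1 the ratios were -0.52 for Atf4, -0.49 for Gas5 and -0.70 for Upf1, with a median of -0.52.

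The second comparison asked what cycloheximide did to the signal of each gene with the Upf1 antibody. The fitted log2 ratio of cycloheximide to untreated was -1.75 ± 1.19 (SE) for Srsf2, -1.31 ± 1.23 (SE) for Upf1, -0.42 ± 1.36 (SE) for Gas5 and -0.33 ± 1.38 (SE) for Atf4. In limma-voom none of the 5 passed an adjusted p of 0.05, against 1 feature of 7344 in the whole table (0.0136%), or 246 features without IgG untreated A1. At an unadjusted p under 0.05 the whole table had 259 features higher and 761 lower. Srsf3 had no alignment with cycloheximide and entered the table only through untreated libraries, so its fitted ratio and p are not read. The pooled ratios given earlier are no estimate of a cycloheximide effect on Srsf3, since the untreated groups include libraries with the shorter reads. Untreated libraries with the longer reads had no Srsf3 alignment either, and the pooled ratios leave out the spread between libraries. The median of all features was -0.40, which places Gas5 and Atf4 close to the middle of the table and Srsf2 and Upf1 below it.

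Read length moves with this comparison. In the 7 libraries with 38-nt reads alone, 3 windows could be tested, and the log2 ratio was 0.62 for Gas5 and 0.36 for Atf4, both of the opposite sign, and -1.27 for Upf1. The median of all features was 0.42 in that fit, so the sign of Gas5 and Atf4 changed along with that of the whole table. Srsf2 and Srsf3 had too few alignments to be tested there. Among them the Srsf2 rate with the Upf1 antibody was 3.15 and 5.85 per 100000 with cycloheximide, on either side of the 4.89 of the 1 untreated library.

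With IgG the same treatment gave log2 ratios of 1.94 ± 1.32 (SE) for Atf4, 1.04 ± 1.28 (SE) for Gas5, 0.44 ± 1.11 (SE) for Srsf2 and 0.21 ± 1.12 (SE) for Upf1. None of the 5 windows and 0 of 7344 features passed an adjusted p of 0.05 in limma-voom (0%), and at an unadjusted p under 0.05 there were 455 features higher and 12 lower, none of them a window named here. The median of all features was 0.32. Atf4 lay above 92.3% of the features. Without IgG untreated A1 the ratio of Atf4 was 0.74 and that of Gas5 0.013, while Srsf2 and Upf1 went to -1.01 and -1.09. The median of all features went to -0.33 in that fit, so the whole table shifted in the same direction.

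The cycloheximide change with the Upf1 antibody minus that with IgG was negative for the 4 genes other than Srsf3, from -2.27 ± 1.91 (SE) for Atf4 to -1.46 ± 1.87 (SE) for Gas5. The median of all features was also negative, at -0.83. None of the 5 passed an adjusted p of 0.05 in limma-voom, nor did any of the 7344 features (0%). At an unadjusted p under 0.05 there were 14 features higher and 258 lower, and none of the windows was among these. Without IgG untreated A1 the values were -1.06 for Atf4, -0.90 for Srsf2, -0.46 for Gas5 and -0.16 for Upf1, with a median of -0.25.

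**Figure D2:**
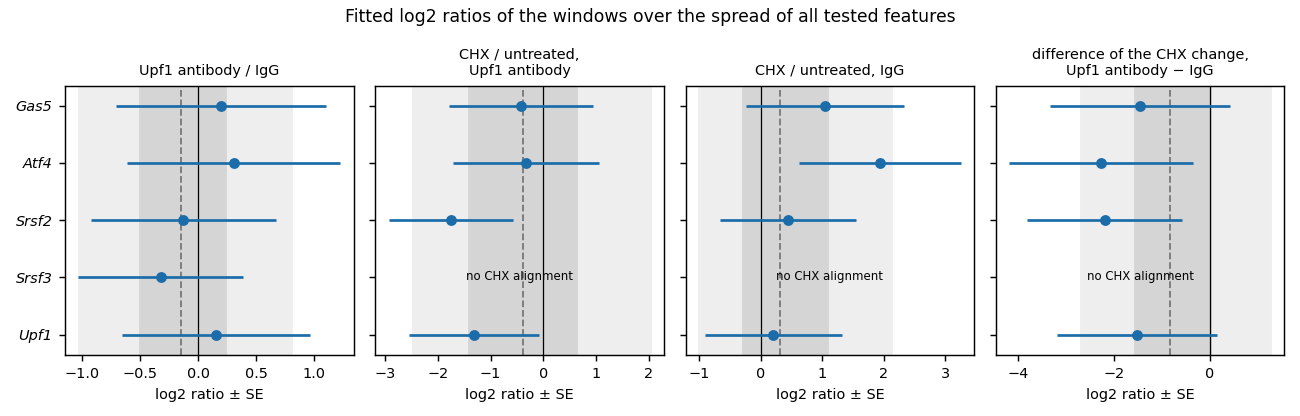
Fitted log2 ratios (x axis) of the 5 windows, with standard errors, in the 4 comparisons of limma-voom (CHX, cycloheximide). Dark grey covers the middle 50% of the 7344 features, light grey the middle 90%, and the dashed line is their median. Srsf3 has no cycloheximide alignment and is drawn in the antibody comparison alone; most standard errors are wider than the distance to the median.

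Each gene had its own layout of alignments along the window. Unspliced alignments at most 50 nt apart were merged into regions over all libraries. In Atf4 the alignments formed 4 regions, and 3 of these held 172 of 174 unspliced alignments, or 98.9%. They lay at chr15:80086646-80086952 with 34 alignments, chr15:80087062-80087472 with 75 and chr15:80087538-80087967 with 63. Every library placed 92.3% or more of its Atf4 alignments in the 3′ part of the window past its midpoint. This share was 94.5%, 100% and 93.8% in Upf1 untreated A1, A2 and I, 100% and 94.1% in Upf1 cycloheximide A1 and A2, 96.2% in IgG untreated I, and 92.3% and 92.9% in the IgG pair with cycloheximide.

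The gap of Atf4 between chr15:80086952 and chr15:80087062 coincided with splicing. Spliced alignments, defined as spanning more than 60 nt, ran from chr15:80086948 to chr15:80087093 in each of the 3 Upf1 untreated libraries, a span of 146 nt. Together with 2 close variants there were 5 such alignments, and the 137 nt that all of them enclosed held 3 of 174 unspliced alignments. A sixth spliced alignment, in Upf1 cycloheximide A2, spanned 738 nt from the same start. All 6 came from Upf1-antibody libraries, among 123 Atf4 alignments there and 57 with IgG. The 0 of 57 with IgG allows a spliced share of up to 5.26%, above the 4.88% of the Upf1 antibody, so a difference was not detectable at this depth.

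In Srsf2 the densest region was chr11:116711461-116712156, near the 3′ end of the signal, with 49 alignments at 46 positions. It took 14 of 18 unspliced alignments in Upf1 untreated A1, 25 of 31 in Upf1 untreated I and 7 of 18 in IgG untreated I. In the cycloheximide libraries it took 0 of 1 and 0 of 2 with the Upf1 antibody and 0 of 1 and 1 of 3 with IgG. A second region at chr11:116711233-116711284, farther 3′, held 10 alignments, 4 from Upf1 untreated and 6 from IgG untreated. The only spliced alignment of Srsf2 spanned 1084 nt, from chr11:116712258 to chr11:116713341, in Upf1 untreated A1.

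Of the 7 Srsf2 alignments with cycloheximide, 6 lay farther 5′, in regions that held few untreated alignments. The region chr11:116713113-116713183 held 5 alignments in 5 libraries, 1 from each untreated group, 1 from Upf1 cycloheximide and 2 from IgG cycloheximide. The region chr11:116713371-116713407, named after its values were seen, held 2 from Upf1 cycloheximide, 1 from IgG cycloheximide and 1 from IgG untreated.

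The share of Srsf2 alignments past the midpoint of the window was 84.2% of 19, 100% of 1 and 93.5% of 31 in Upf1 untreated A1, A2 and I, and 0% of 1 and 0% of 2 in Upf1 cycloheximide A1 and A2. With IgG it was 100% of 1 and 72.2% of 18 in untreated A2 and I, and 0% of 1 and 33.3% of 3 in the pair with cycloheximide. All cycloheximide libraries were below all untreated ones, and the mean difference within antibodies was -82.1 points (exact two-sided permutation test with no minimum of alignments, p = 0.0167, the smallest possible; Benjamini-Hochberg adjusted p = 0.105 over 7 tests of shares). This test was chosen after the values had been seen, does not pass the adjustment and rests on 7 cycloheximide alignments, none of which remained without shared molecules. With the boundary moved 3′, so that it marks off the final 33.3% of the window, the difference was -38.1 points (exact two-sided permutation test, p = 0.2).

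Srsf3 was spread over more merged regions than Atf4 and Srsf2. Its 43 alignments were unspliced and scattered over 23 regions, 10 of them of 1 alignment, and the 3 fullest held 13 alignments, or 30.2%. The fullest was chr17:29179314-29179411, with 6 alignments in all 3 libraries that held any. On a coarser scale the signal was uneven: with the window cut into 10 equal parts, part 9 from the 5′ end held 18 of the 43 alignments, or 41.9%. The share past the midpoint of the window was 80.0% in Upf1 untreated A1, 72.2% in Upf1 untreated I and 86.7% in IgG untreated I, so the IgG value was the highest.

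The Upf1 window was 23.0 kb long, and 2 neighbouring regions near its 3′ end held 33 of 57 unspliced alignments. They were chr8:72855899-72856287 with 20 and chr8:72855460-72855800 with 13. In Upf1 untreated A1 they took 20 of 25 alignments, in Upf1 untreated A2 2 of 5, in Upf1 untreated I 1 of 5 and in IgG untreated I 7 of 10. Most of this 3′ concentration therefore came from 1 library with the Upf1 antibody, and IgG untreated I had it as well. The 2 spliced alignments of this window, of 174 and 132 nt, were both in Upf1 untreated I and lay in the 3′ part of the gene.

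**Figure D3:**
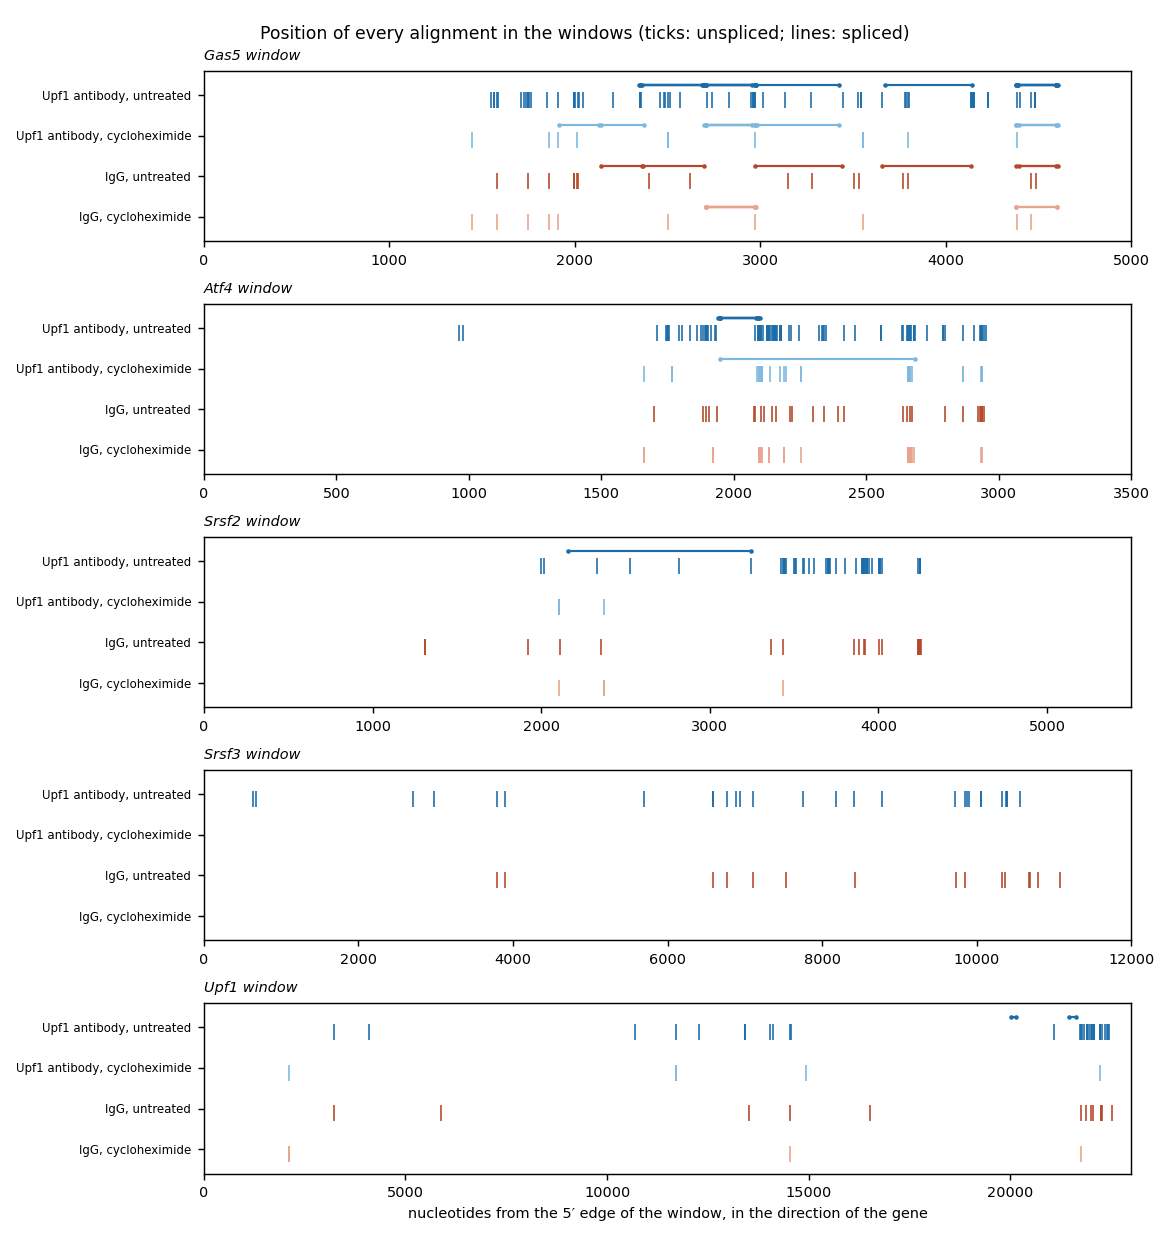
Position of every alignment (x axis, nucleotides from the 5′ edge of the window in the direction of the gene) in the 5 windows, in 1 row for each group. Ticks are midpoints of unspliced alignments and lines join the start and end of spliced ones; libraries of a group are overlaid. Over all libraries most alignments of each window lie past its midpoint, but those of Srsf2 with cycloheximide mostly do not. Gas5 has splice spans along the stretch its alignments occupy. Srsf3 has no alignment with cycloheximide.

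Most spliced alignments were those of Gas5, where 39 of 145 alignments were spliced, against 9 of 359 in the other windows together. Taking spans whose starts and whose ends lay within 40 nt as 1 junction, there were 7 junctions in a row along the gene. The most frequent had 14 spliced alignments in 6 libraries and enclosed chr1:162966707-162966969. Within it the span from chr1:162966705 to chr1:162966973 was present in 4 libraries: Upf1 untreated A1, Upf1 cycloheximide A2 and both IgG cycloheximide libraries. The next had 12 spliced alignments in 8 libraries and enclosed chr1:162968393-162968593. Within that one the span from chr1:162968380 to chr1:162968601 was present in 3 cycloheximide libraries, Upf1 A2 and IgG A1 and A2. The other 5 junctions had 13 spliced alignments together.

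Unspliced Gas5 alignments lay both in the stretches that spliced alignments enclose and outside them. Each stretch ran from the latest start to the earliest end of the alignments of a junction. It therefore includes some aligned exon bases beside the sequence that splicing removes. The stretches enclosed by the 7 junctions, 2140 nt in all, held 55 of the 106 unspliced alignments, or 51.9%, with 41 of 79 for the Upf1 antibody and 14 of 27 for IgG. By library the share inside was 56.7% of 30 in Upf1 untreated A1, 0% of 5 in A2 and 60.6% of 33 in I, and 20% of 5 and 50% of 6 in Upf1 cycloheximide A1 and A2. With IgG it was 40% of 5 in untreated A2, 81.8% of 11 in untreated I and 22.2% of 9 in cycloheximide A2, and the other IgG libraries had 1 unspliced alignment each, inside in untreated A1 and outside in cycloheximide A1. Among libraries with 5 or more unspliced alignments, the highest shares were those of the 3 with 34-nt reads. Of the fullest regions, chr1:162966337-162966638 held 14 alignments, chr1:162965980-162966062 held 12 and chr1:162968368-162968502 held 12. RefSeq places 8 small nucleolar RNA genes, Snord47 among them, within Gas5; without an mm9 annotation they were not placed on these regions.

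The mean spliced share of Gas5 was higher in the cycloheximide libraries with either antibody, a difference that did not pass adjustment. It was 28.6% of 42 in Upf1 untreated A1, 0% of 5 in A2 and 10.8% of 37 in I, and 50% of 10 and 45.5% of 11 in Upf1 cycloheximide A1 and A2. With IgG it was 0% of 1, 16.7% of 6 and 31.3% of 16 in untreated A1, A2 and I and 80.0% of 5 and 25% of 12 in cycloheximide A1 and A2. The Upf1-antibody groups did not overlap, and the IgG groups did, since IgG untreated I was above IgG cycloheximide A2. The mean was 13.1% ± 14.4 (SD, n = 3) against 47.7% ± 3.22 (SD, n = 2) for the Upf1 antibody and 16% ± 15.6 (SD, n = 3) against 52.5% ± 38.9 (SD, n = 2) for IgG.

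Averaged over the antibodies, the Gas5 spliced share was 35.6 percentage points higher with cycloheximide (exact two-sided permutation test within antibodies, p = 0.03, smallest possible 0.01; Benjamini-Hochberg adjusted p = 0.105 over 7 tests of shares). This test was chosen after the values had been seen and does not pass the adjustment. In the libraries with 38-nt reads alone the difference was 45.6 points (exact two-sided permutation test, p = 0.0556, the smallest possible). Without molecules found in more than 1 library it was 50.7 points (exact two-sided permutation test, p = 0.01, the smallest possible). That step removed 3 of 6 Gas5 molecules in IgG cycloheximide A1, 12 of 14 in IgG cycloheximide A2 and 7 of 8 in IgG untreated A2. The shares of these libraries then rest on very few molecules, and the larger difference is not firmer for it. Leaving out IgG cycloheximide A1 lowered it to 24.8 points, and p for the 10 sets with 1 library left out ran from 0.025 to 0.075 (exact permutation tests).

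The spliced share of whole libraries moved in the same direction. It lay between 0.845% and 1.81% in the 6 untreated libraries and between 4.31% and 5.78% in the 4 with cycloheximide. The difference in Gas5 therefore accompanied one over all alignments, and it was not tested whether Gas5 differed from these. Over the 5 windows pooled, the spliced share was 9.27%, 10.5% and 6.40% in Upf1 untreated A1, A2 and I, 20% and 18.8% in Upf1 cycloheximide, 0%, 7.69% and 5.88% in IgG untreated and 20% and 9.38% in IgG cycloheximide. The pooled difference, the planned test of splicing, was 10.4 points (exact two-sided permutation test within antibodies, p = 0.01, the smallest possible). It was not among the 7 tests of shares that were adjusted together. Without the Gas5 window the difference was -2.25 points, so the pooled difference depended on the Gas5 window. Gas5 was also a larger part of the pooled alignments with cycloheximide. It made up 21 of 57 against 84 of 295 untreated with the Upf1 antibody, and 17 of 52 against 23 of 100 with IgG. How much of the pooled difference came from this change of mix was not tested. In the 4 other windows 1 of 36 alignments was spliced in Upf1 cycloheximide and 8 of 211 in Upf1 untreated, with none of 77 and none of 35 in the IgG groups.

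**Figure D4:**
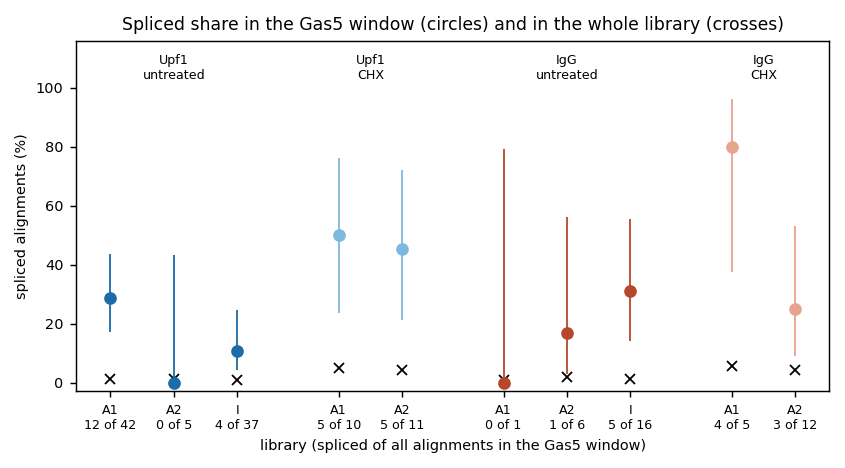
Percent of Gas5 alignments that were spliced (y axis, circles with Wilson 95% intervals, which cover counting error only) in each of the 10 libraries, with the counts under the axis, and percent of all alignments of the library that were spliced (crosses). CHX is cycloheximide. Both Upf1 cycloheximide libraries lie above the 3 Upf1 untreated ones, and the crosses are between 4.31% and 5.78% with cycloheximide against at most 1.81% without.

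The part of the Gas5 signal past the midpoint of the window did not settle into a pattern. It was 71.4%, 0% and 70.3% in Upf1 untreated A1, A2 and I, 80.0% and 63.6% in Upf1 cycloheximide A1 and A2, 33.3% and 75% in IgG untreated A2 and I, and 100% and 58.3% in the IgG pair with cycloheximide. Cycloheximide was 24.8 points higher on average (exact two-sided permutation test, p = 0.283; adjusted p = 0.583 over 7 tests). The difference was 4.50 points without shared molecules and 1.06 points with the boundary moved 3′. The Upf1 antibody differed from IgG by -7.12 points (exact two-sided permutation test, p = 0.783; adjusted p = 0.914). For Atf4 the corresponding differences were -0.66 points for cycloheximide (exact two-sided permutation test, p = 0.933; adjusted p = 0.933) and 2.53 points for the Upf1 antibody (exact two-sided permutation test, p = 0.417; adjusted p = 0.583). Too few libraries held 5 or more alignments of the Srsf2, Srsf3 and Upf1 windows for a test with that minimum to reach 0.05. With no minimum, the difference for the Upf1 window with cycloheximide was -25.3 points (exact two-sided permutation test, p = 0.333; adjusted p = 0.583), and the groups overlapped.

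Alignments of Atf4 were shorter in the cycloheximide libraries, as were those of the whole libraries. Of the unspliced Atf4 alignments, 17 of 54, 0 of 6 and 1 of 30 were shorter than 30 nt in Upf1 untreated A1, A2 and I, against 7 of 11 and 10 of 16 in Upf1 cycloheximide A1 and A2. With IgG the numbers were 0 of 1, 1 of 3 and 1 of 26 untreated and 8 of 13 and 7 of 14 with cycloheximide. All 4 cycloheximide libraries, from 50% to 63.6%, were above all 6 untreated ones, which reached 33.3% at most. The whole libraries differed in the same way, with 48.4% to 52.6% of unspliced alignments under 30 nt with cycloheximide and 9.98% to 39.3% without. In Gas5, by contrast, only 1 of 11 unspliced alignments was under 30 nt in Upf1 cycloheximide and 1 of 10 in IgG cycloheximide, against 8 of 68 and 2 of 17 untreated. The limit of 30 nt was chosen after the data had been seen, and whether the genes differ in this was not tested.

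**Figure D5:**
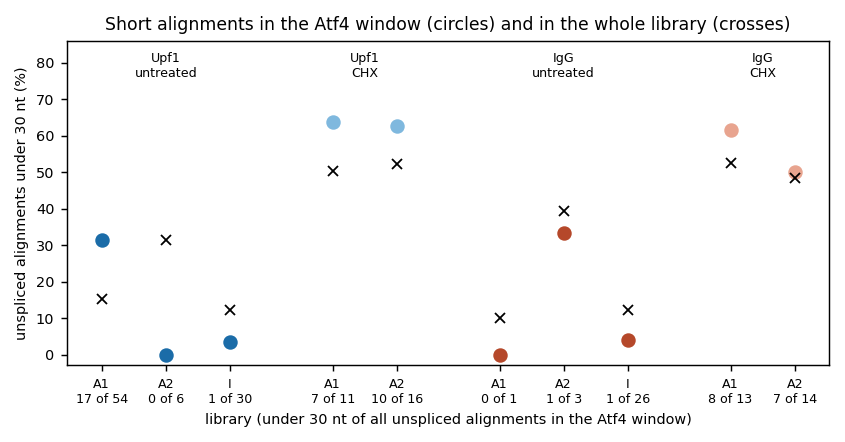
Percent of unspliced alignments shorter than 30 nt (y axis) in the Atf4 window (circles, with counts under the axis) and in the whole library (crosses), for each of the 10 libraries. CHX is cycloheximide. Circles and crosses are both near or above 50% in the 4 cycloheximide libraries and lower in all untreated ones.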

How the data were processed

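The deposited files list CLIP alignments, 1 per line, on mm9 per the labels. Bowtie 0.12.6, TopHat 1.4.0 and Cufflinks 1.3.0 are listed, with no role, per the submitters' processing notes. The deposited score column held 255 in every line and was not used; the other deposited column is a name with a serial number, a copy number and 2 adapter letters. The members, windows and measures were chosen with earlier results of these data known. An alignment was assigned by its midpoint and strand and counted once per library, since the files had been filtered for copies unequally.

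These tallies are not a deposited table of reads per gene, so limma-voom (limma 3.58.1, R 4.3.3) with TMM scaling was fitted to the windows and 10000-nt tiles with at least 10 alignments in at least 3 libraries. Benjamini-Hochberg adjustment covered the whole table. Treatment was a covariate for Upf1 against IgG; other contrasts came from a 4-group model. Single values were compared with exact permutation tests within antibody or treatment. Shares in a window used libraries with at least 5 alignments there, except the spliced share and the tests with no minimum, which used all that held 1. The text names all 5 genes, the 3 fullest merged regions in each and splice spans seen in at least 2 libraries, to which single spans of Atf4, Srsf2 and Upf1 and 1 Srsf2 region were added after their values were seen. Planned lists of decay factors, other targets and cell markers need an mm9 annotation and were not used. No sequence is printed, since no mm9 genome was at hand. Alternatives are in the closing section.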

Additional observations from a re-analysis of the deposited data

How the results depend on the processing

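None of the 5 windows passed the threshold in any of the 4 comparisons under any alternative run (limma with a trended prior, library totals, distinct molecules, every line, unshared molecules, 5000-nt tiles, merged regions, unspliced alignments alone, no filter, longer-read libraries, the replicate block, each library left out). Leaving Srsf3 with cycloheximide aside, adjusted p ran from 0.193 to 1. The median of all features moved as well: for Upf1 against IgG it went from -0.14 to -0.75 with library totals, -0.34 with the longer reads and -0.52 without IgG untreated A1. For Upf1 against IgG, library totals gave -0.31 for Atf4, -0.33 for Gas5 and -0.37 for Upf1, and the longer reads alone gave -0.49, -0.63 and -0.14. Gas5 was at -0.049 with every line, and Srsf2 at 0.043 with molecules, 0.25 with no filter and 0.039 with the trended prior. For cycloheximide in Upf1, the longer reads gave 0.36 for Atf4 and 0.62 for Gas5. For cycloheximide in IgG, unshared molecules gave -1.59 for Srsf2 and -0.64 for Upf1, and Upf1 was at -0.11 with 5000-nt tiles and -0.23 with merged regions. The medians of all features in those fits were -0.18, -0.05 and -0.46 in the same order. With 1 library left out, Upf1 against IgG ran from -0.52 to 0.69 for Atf4, -0.49 to 0.45 for Gas5, -0.84 to 0.44 for Srsf2, -0.89 to 0.086 for Srsf3 and -0.70 to 0.51 for Upf1. Cycloheximide in Upf1 ran from -0.69 to 0.20 for Atf4 and -0.96 to 0.051 for Gas5, and in IgG from -1.01 to 1.36 for Srsf2, -1.09 to 1.18 for Upf1, 0.74 to 2.61 for Atf4 and 0.013 to 1.91 for Gas5. The difference between antibodies ran from -3.05 to -1.06 for Atf4, -2.21 to -0.46 for Gas5, -3.28 to -0.90 for Srsf2 and -2.38 to -0.16 for Upf1. A group left with 1 library was assumed to vary like the others. Srsf3 could not be fitted without any 1 of the 3 libraries that hold it, nor Srsf2 and Srsf3 with the longer reads alone.

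Deviations of same-named libraries correlated between -0.05 and 0.43, with 7 of 13 pairs above 0.1, against -0.42 to 0.24 for other pairs. Since not every pair was above 0.1, the names were not taken to pair the samples, although part of the pairs moved together. The replicate block gave 0.13 for Atf4 with cycloheximide in Upf1, and no call. In the whole table, features called for cycloheximide in Upf1 numbered 1, but 29 with library totals, 99 with merged regions, 31 with no filter, 246 without IgG untreated A1 and 37 without IgG untreated I, and 0 or 1 otherwise. For cycloheximide in IgG merged regions called 1.

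The 3′ difference between antibodies was 2.80 points with molecules and 1.93 with every line for Gas5, -0.67 with every line and -7.45 with the boundary moved 3′ for Atf4. Atf4 with cycloheximide was at 4.00 with unshared molecules, and Gas5 at 4.50, or 1.06 with the boundary moved 3′. Srsf2 with no minimum was at -38.1 with the boundary moved 3′ and -91.7 with the longer reads alone, and ran from -90.3 to -78.4 with 1 library left out. With 1 library left out, Gas5 ran from 13.0 to 32.2 with cycloheximide and from -16.1 to 4.67 between antibodies, and Atf4 from -2.73 to 0.96 and from 0.69 to 4.48. The pooled spliced difference ran from 8.41 to 12.5 points with 1 library left out, was 10.04 with the longer reads alone, where the smallest p allowed is above 0.05, and -2.25 without Gas5; these last alternatives were added with the data known. The cause of the sign changes was not tested.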

Other observations

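Strand was nearly exclusive in the windows: 2 alignments lay on the strand opposite to the genes, 1 in the Srsf2 window and 1 in the Upf1 window, both in Upf1 cycloheximide libraries, against 504 on the strand of the genes. The windows held 640 molecules, of which 129, or 20.2%, were also present in another library, 12.7% for the Upf1 antibody and 38.8% for IgG. In Gas5 the share was 4.50% in Upf1 untreated, 45.2% in Upf1 cycloheximide, 25% in IgG untreated and 75% in IgG cycloheximide. In Atf4 it was 4.51%, 57.1%, 15.4% and 81.3% in the same order.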
